A study of Mus musculus with 30 samples.

Results

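Wild-type brain was set against wild-type skeletal muscle, the quadriceps femoris, over all counted genes and then family by family in 4 areas that both excitable tissues need: ion channels, calcium handling, metabolism and the cytoskeleton. The comparison used 6 of the 30 libraries of the series, 3 from each tissue, all from adult C57BL/6 mice with both Ctcf alleles intact. Of 48709 counted genes, 19381 had enough counts to be tested, and 526 genes were arranged in 118 families, including 2 families of the protein synthesis machinery. A family here is a set of related genes, mostly encoding versions of the same protein, so a switch between members is a change of gene and not of splicing. In 4 of them (phosphorylase kinase, calcineurin, STIM with Orai, and the mitochondrial uniporter), set apart in a count below, unlike subunits or partners of 1 machinery are pooled. The nicotinic receptor and sarcoglycan families also pool different subunits of 1 complex and were not set apart. The study itself asked what loss of 1 Ctcf allele does to intron retention in 5 tissues, and it sequenced total RNA from control and Ctcf+/- animals. The 6 Ctcf+/- libraries of brain and muscle served here as a separate set of samples for the same tissue contrast. The labels do not say whether libraries with different numbers came from different mice, so the p-values below measure the spread between these libraries. Each tissue was counted in its own table and nothing in the labels links libraries across tissues, so tissue and any difference in handling between the tables cannot be told apart.

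Neurons and muscle fibres both fire action potentials carried by sodium and potassium channels, and both turn the signal into a rise of cytosolic calcium. In a neuron, calcium enters mainly through surface channels and triggers transmitter release, whereas in a skeletal muscle fibre a surface calcium channel acts as a voltage sensor that opens ryanodine receptors on the sarcoplasmic reticulum. Vertebrate genomes keep several genes for most of these proteins and for many enzymes of energy metabolism, and textbook names such as brain-type creatine kinase or muscle-type phosphorylase come from the tissue in which each gene is mainly used.

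The labels were checked against marker genes before the comparison. The summed level of 6 neuronal markers was 3430 to 4215 CPM (counts per 1000000, scaled as below) in the brain libraries and 0.710 to 1.51 CPM in muscle, where Gad2 was at 0 in all 3 libraries. The 5 fast-fibre markers summed to 138147 to 148163 CPM in muscle and 37.7 to 48.8 CPM in brain, and slow-fibre markers to 1096 to 2861 CPM in muscle, lowest in replicate 3. Both labels therefore matched their defining markers. Several other cell types moved with the tissues as well. Schwann cell markers summed to 52.3 to 111 CPM in muscle and 1.35 to 1.57 in brain, and adipocyte markers to 33.2 to 96.9 and 0.0809 to 0.218. Endothelial markers summed to 339 to 444 CPM in muscle and 20.9 to 26.2 in brain, and choroid plexus markers to 1.13 to 5.16 and 463 to 755. Erythroid sums overlapped, at 176 to 444 CPM in muscle and 140 to 223 in brain. Of 4 macrophage markers, 2 were called toward each tissue. Pituitary markers summed to 24.1 CPM in brain replicate 2, beside 2.49 and 1.54 in replicates 1 and 3. The part of these cell types in the differences below was not tested, and in bulk tissue fewer cells of a type and less RNA per cell cannot be told apart.

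The brain libraries held 49.8 M to 72.7 M counted fragments and the muscle libraries 93.1 M to 103.7 M. In brain 6.09% to 7% of a library came from its 10 most abundant genes, and in muscle 27.22% to 29.54%. That imbalance makes the scaling between tissues matter. The trimmed mean of M values (TMM) put the median log2 difference of all tested genes, brain over muscle, at 0.24, whereas scaling by total counts put it at 1.55, a shift of 1.31. Ctcf itself, scaled by total counts, stood at 67.1 to 71.3 CPM in wild-type brain, 29.4 to 33.7 in wild-type muscle, 40.8 to 44.1 in Ctcf+/- brain and 19.5 to 24.6 in Ctcf+/- muscle, so the groups of each tissue matched their genotype labels without overlap.

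Most genes differed between the tissues. By edgeR's quasi-likelihood test with Benjamini-Hochberg adjustment over all genes tested, 15974 of 19381 genes (82.4%) passed an adjusted p of 0.05, of which 8748 (45.1%) were higher in brain and 7226 (37.3%) higher in muscle. With total-count scaling the split was 13359 to 3415. A stricter test asked whether a gene differed by more than 8-fold: 3390 genes (17.5%) passed it toward brain and 1287 (6.64%) toward muscle. The libraries of the tissues did not overlap for 85.1% of the genes tested. All counts of members below are read against these shares, and "called" refers to the first test unless the 8-fold test is named.

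Levels of different genes are compared only as CPM per kilobase of the deposited gene length (CPM per kb). Among genes called at 8-fold, the 10 highest in brain on that scale included Ckb (brain-type creatine kinase), Nrgn (a postsynaptic calmodulin-binding protein), Ttr (transthyretin, made by the choroid plexus), Apoe (the main brain lipid carrier), Ptgds (prostaglandin D synthase), Tuba1a (an alpha-tubulin), Kif5a (a neuronal kinesin), Ncdn and Aplp1. In muscle they were Acta1 (skeletal actin), Tnnt3 and Tnni2 (fast troponins T and I), Pvalb (parvalbumin), Mylpf and Myl1 (fast myosin light chains), Myh4 (the IIB myosin heavy chain), Atp2a1 (the fast-fibre calcium pump), Aldoa (aldolase A) and Ckm (muscle-type creatine kinase). The leading genes of muscle reached far higher levels: Acta1 stood at 38867, 38943 and 36586 CPM per kb in the 3 muscle libraries, and Ckb at 693, 721 and 704 CPM per kb in the 3 brain libraries. Of these 20 genes, 13 belong to the families described below.

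Of the 526 family members, 498 passed the filter on low counts. Of these, 249 (50%) were called higher in brain and 213 (42.8%) higher in muscle, beside 45.1% and 37.3% of all genes. The other 36 were called in neither direction. The libraries of the tissues did not overlap for 464 of the 498 (93.2%), beside the 85.1% of all genes. At 8-fold, 148 were called toward brain, or 29.7% of the members tested beside 17.5% of all genes, and 122 toward muscle, or 24.5% beside 6.64%. The areas leaned in different ways. Of 136 ion channel members tested, 71 (52.2%) were at least 8-fold higher in brain and 18 (13.2%) in muscle, whereas of 149 cytoskeletal members 29 (19.5%) were higher in brain and 51 (34.2%) in muscle. Metabolic members divided 23 (17.8%) to 39 (30.2%) of 129 and calcium-handling members 25 (31.2%) to 13 (16.2%) of 80. Toward brain, the metabolic and cytoskeletal shares lay near the 17.5% of all genes. The median absolute log2 difference of the members tested was 4.01, beside 1.64 for all genes. The families were picked for genes known to be tissue-specific, and with earlier results of these data known. No more is therefore read from that gap, or from the distance of the member shares from those of all genes.

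**Figure D1:**
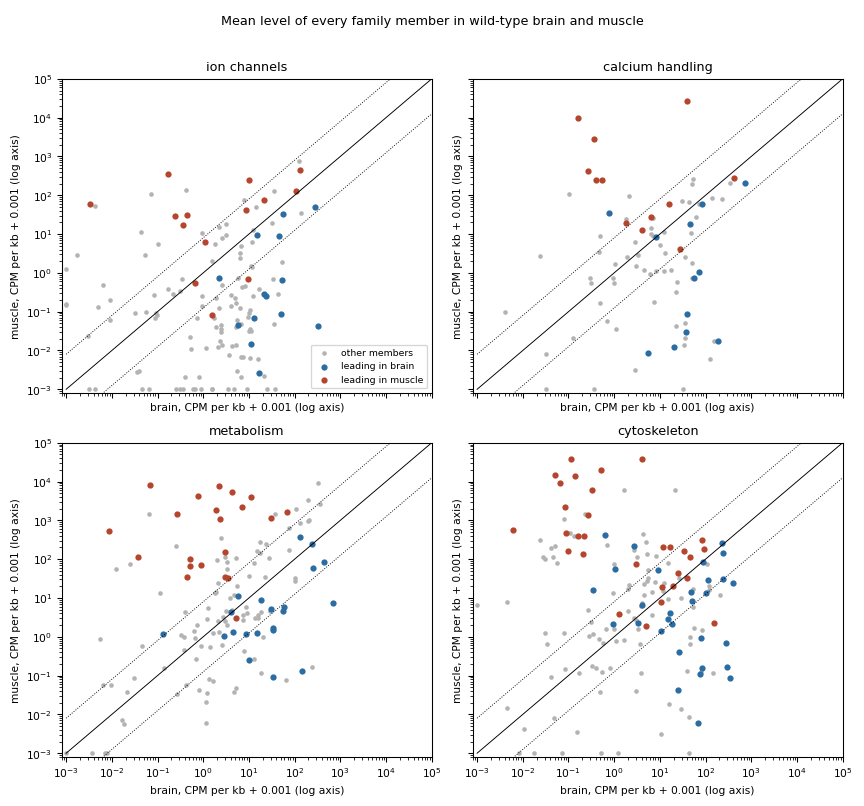
Mean level of each family member in wild-type brain (x axis) and wild-type muscle (y axis), in CPM per kb plus 0.001 on log axes, 1 panel per area and 3 libraries per tissue. Blue and red points are the leading members of the 79 families whose leader differed between the tissues. The solid line is equality and the dotted lines mark 8-fold. Ion channel members crowd below the line, and the highest points above it are sarcomere genes and the calcium buffer gene Pvalb.

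To separate the choice of gene from the amount of the whole family, each member's level was expressed as a share of its family's summed level in the same library, a value that library scaling cannot change. A family was counted as switched when 1 member led in all 3 brain libraries and a different member led in all 3 muscle libraries. By this rule 79 of 118 families switched: 14 of 22 ion channel families, 12 of 19 in calcium handling, 21 of 38 in metabolism, 30 of 37 in the cytoskeleton and both protein synthesis families. In 28 families the same gene led in both tissues, and in 11 the leader differed between libraries of 1 tissue. The share of the family total that would have to pass to other members to turn the brain pattern into the muscle pattern had a median of 70.2%, exceeded 90% in 32 families and was under 20% in 14.

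**Figure D2:**
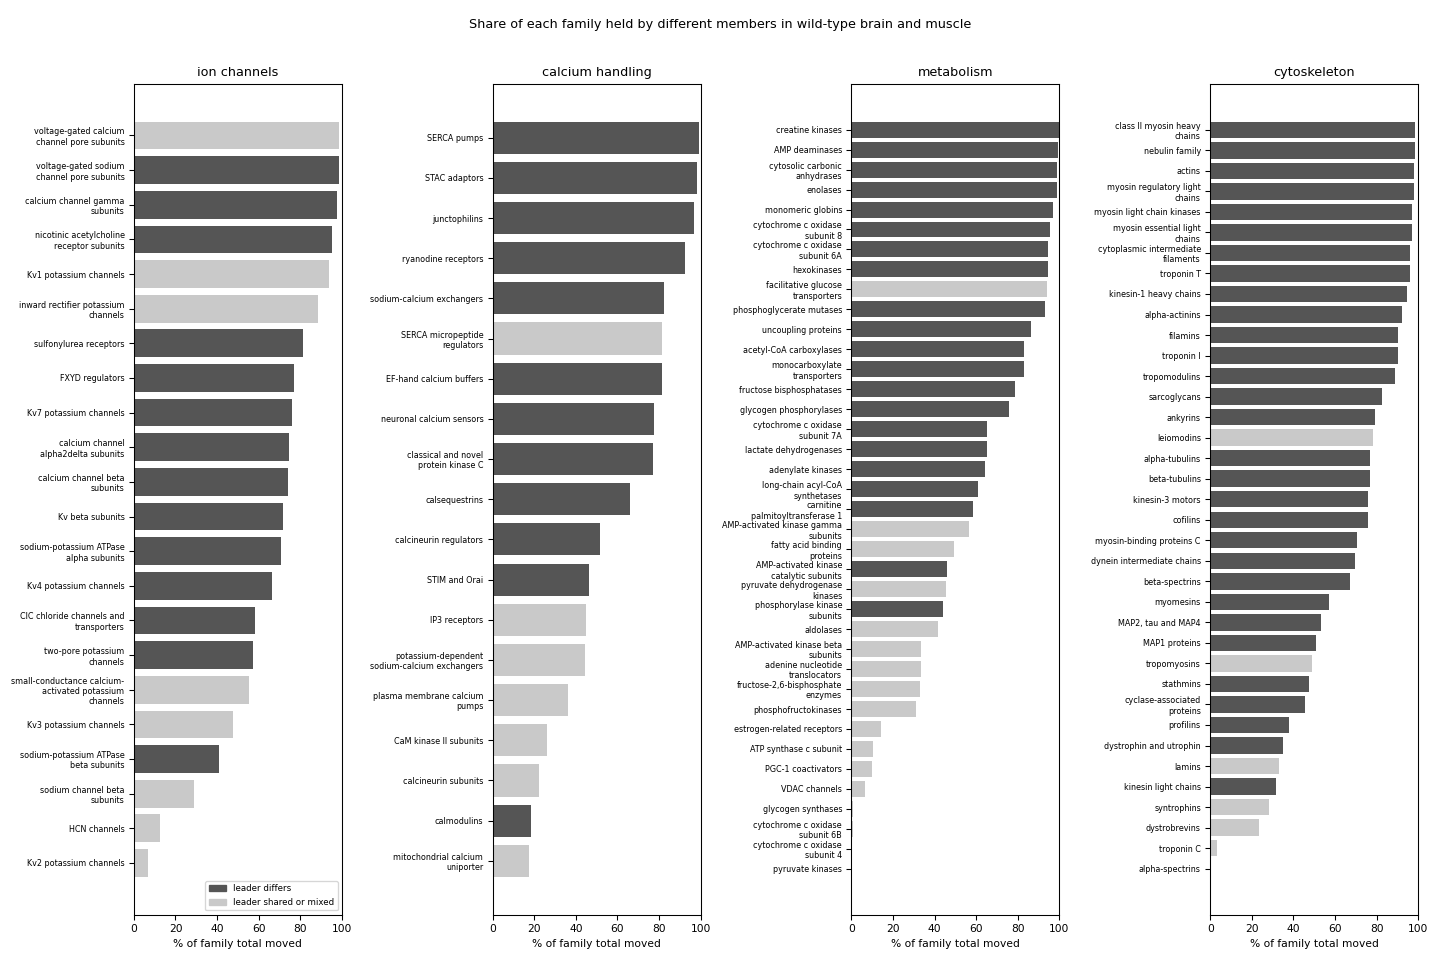
Percentage of each family's summed per-length level that is held by different members in wild-type brain and muscle (x axis, the sum over members of the share gained from brain to muscle), 1 bar per family in 4 areas. Dark bars are families whose leading member differed in every library; creatine kinases, AMP deaminases and SERCA pumps lie near 100% and pyruvate kinases and alpha-spectrins near 0.

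A switch can arise with both genes moving or with 1. In 50 of the 79 switched families the brain leader was called higher in brain and the muscle leader higher in muscle, and 44 of these held under all 4 scalings tried. The other 6 were the sodium-calcium exchangers, beta-tubulins, the MAP2 group, beta-spectrins, cyclase-associated proteins and dystrophin with utrophin, whose muscle leaders (Slc8a3, Tubb4b, Map4, Sptb, Cap2 and Dmd) were called higher in muscle with TMM but not with total counts. In 17 of the 79 the muscle leader alone was higher in its own tissue, and in 12 the brain leader alone. With total counts these became 10 and 18, beside 51 with both, since 7 of the 17 gained a brain leader called higher in brain. Without the 4 families set apart for pooling unlike subunits, 77 of 114 families switched, and in 49 both leaders were higher in their own tissue. The 114 still include the nicotinic receptors and the sarcoglycans, so these counts are not free of changes between unlike subunits. A family is said below to pass from 1 gene to another when its leader differed by the rule for a switch. The summed family level lay within 2-fold between the tissues under both TMM and total-count scaling in 6 switched families: the sodium channel pores, hexokinases, kinesin-3 motors, profilins, cyclase-associated proteins, and dystrophin with utrophin.

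The promoters of 4 switched pairs are printed here because each pair encodes versions of 1 protein while the sequence beside their start sites differs. They hold the 250 bases before the RefSeq start on GRCm38.p6, 5′ to 3′ along the gene's strand. The pairs were chosen after their values were seen, from families with a single listed start for both leaders. Capitals mark CAGCTG, a palindromic E-box, the kind of site that basic helix-loop-helix factors such as the myogenic MyoD family bind. The first pair is the non-muscle myosin heavy chain Myh10 at chr11:68691665-68691914 (plus strand) and the fast skeletal Myh4 at chr11:67237562-67237811 (plus strand). The second is Ckb at chr12:111672339-111672588 (minus strand) and Ckm at chr7:19410844-19411093 (plus strand). The third is the brain glycogen phosphorylase Pygb at chr2:150786546-150786795 (plus strand) and its muscle counterpart Pygm at chr19:6384158-6384407 (plus strand). The last is Cox8a at chr19:7217617-7217866 (minus strand) and Cox8b at chr7:140900447-140900696 (minus strand), encoding versions of a small subunit of cytochrome c oxidase.
Myh10: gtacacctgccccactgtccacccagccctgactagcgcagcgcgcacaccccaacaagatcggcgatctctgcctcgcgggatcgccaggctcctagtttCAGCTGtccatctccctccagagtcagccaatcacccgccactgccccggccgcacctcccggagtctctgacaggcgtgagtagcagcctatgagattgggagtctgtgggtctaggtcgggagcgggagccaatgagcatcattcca
Myh4: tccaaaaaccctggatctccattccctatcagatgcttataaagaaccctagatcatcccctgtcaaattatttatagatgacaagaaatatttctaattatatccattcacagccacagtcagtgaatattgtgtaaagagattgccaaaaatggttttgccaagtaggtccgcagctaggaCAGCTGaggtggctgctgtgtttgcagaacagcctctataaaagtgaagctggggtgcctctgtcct
Ckb: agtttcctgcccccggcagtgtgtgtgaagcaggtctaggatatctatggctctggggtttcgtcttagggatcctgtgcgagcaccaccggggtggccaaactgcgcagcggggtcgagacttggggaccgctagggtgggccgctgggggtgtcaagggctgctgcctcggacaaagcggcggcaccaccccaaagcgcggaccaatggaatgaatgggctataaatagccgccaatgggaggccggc
Ckm: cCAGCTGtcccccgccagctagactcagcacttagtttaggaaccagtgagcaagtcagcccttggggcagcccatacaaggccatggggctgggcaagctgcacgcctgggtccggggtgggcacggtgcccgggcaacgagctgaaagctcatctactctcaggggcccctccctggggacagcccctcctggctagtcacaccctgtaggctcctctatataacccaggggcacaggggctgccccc
Pygb: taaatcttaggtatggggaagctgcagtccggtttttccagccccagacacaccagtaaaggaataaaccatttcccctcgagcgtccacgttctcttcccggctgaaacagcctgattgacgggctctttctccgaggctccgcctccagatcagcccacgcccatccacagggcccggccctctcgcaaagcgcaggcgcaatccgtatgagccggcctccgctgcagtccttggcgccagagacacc
Pygm: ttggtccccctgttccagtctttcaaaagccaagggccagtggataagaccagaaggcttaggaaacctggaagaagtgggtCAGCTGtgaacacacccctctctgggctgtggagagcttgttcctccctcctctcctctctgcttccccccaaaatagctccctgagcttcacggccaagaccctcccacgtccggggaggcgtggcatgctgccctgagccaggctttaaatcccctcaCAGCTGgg
Cox8a: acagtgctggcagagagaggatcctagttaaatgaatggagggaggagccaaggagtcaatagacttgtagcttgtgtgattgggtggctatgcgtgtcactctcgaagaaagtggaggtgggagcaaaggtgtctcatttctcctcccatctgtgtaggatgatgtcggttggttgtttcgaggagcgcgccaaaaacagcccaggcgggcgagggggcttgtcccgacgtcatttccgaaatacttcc
Cox8b: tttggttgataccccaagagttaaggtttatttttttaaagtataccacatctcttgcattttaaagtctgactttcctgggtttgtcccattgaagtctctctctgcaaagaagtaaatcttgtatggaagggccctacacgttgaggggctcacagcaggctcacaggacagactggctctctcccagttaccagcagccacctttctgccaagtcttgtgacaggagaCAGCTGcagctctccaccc

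CAGCTG occurred in all 4 muscle members, once each in Myh4, Ckm and Cox8b and 2 times in Pygm, and among the brain members in Myh10. In RefSeq windows of the same 250 bases, it lay in 27 of 79 (34.2%) windows of muscle leaders and 12 of 82 (14.6%) of brain leaders, beside 13.0% of all 32851 windows. The table held 61 of the 79 muscle leaders and 63 of the 79 brain leaders. Counted by gene, 24 of the 61 muscle leaders (39.3%) and 11 of the 63 brain leaders (17.5%) had CAGCTG, beside 14.7% of all genes. All motifs were sought on both strands, and a gene with several listed starts has several windows. A second muscle-associated motif, MEF2, was found in 7.59% of muscle-leader windows, 3.66% of brain-leader windows and 2.92% of all. Among the printed promoters it lay in Myh4 and in the brain member Ckb, and not in Ckm, Pygm or Cox8b. The TATAAA box was in 8.86%, 7.32% and 12.4% of the windows in the same order. GGGCGG was in 46.8%, 41.5% and 32.7%, and the CArG motif in 5.06%, 1.22% and 1.47%. These are matches of letters and not measured binding.

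The pore subunits of voltage-gated sodium channels, which start the action potential, showed a nearly complete exchange. Scn4a, the skeletal muscle pore, stood at 47, 53.7 and 79.5 CPM per kb in muscle and had 3, 2 and 0 counted fragments in the brain libraries. Over the summed libraries it was 24354-fold (95% counting interval 10435 to 75006) higher in muscle, an interval that covers counting error only. In brain the family was divided among Scn2a with 38.5% ± 1.31 of the total (SD, n = 3, as for every ± below), Scn8a with 31.7% ± 1.47 and Scn1a with 19.5% ± 1.18, which are the pores of central axons and interneurons. Scn4a held 98.5% ± 0.547 in muscle. The summed pore level was 33.6 ± 5.54 CPM per kb in brain and 60.9 ± 17 in muscle. Of the accessory beta subunits Scn2b was called higher in brain (log2 7.20 (SE 0.14)), and Scn4b took 16.5% of the beta subunit total in brain and 14.6% in muscle.

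**Figure D3:**
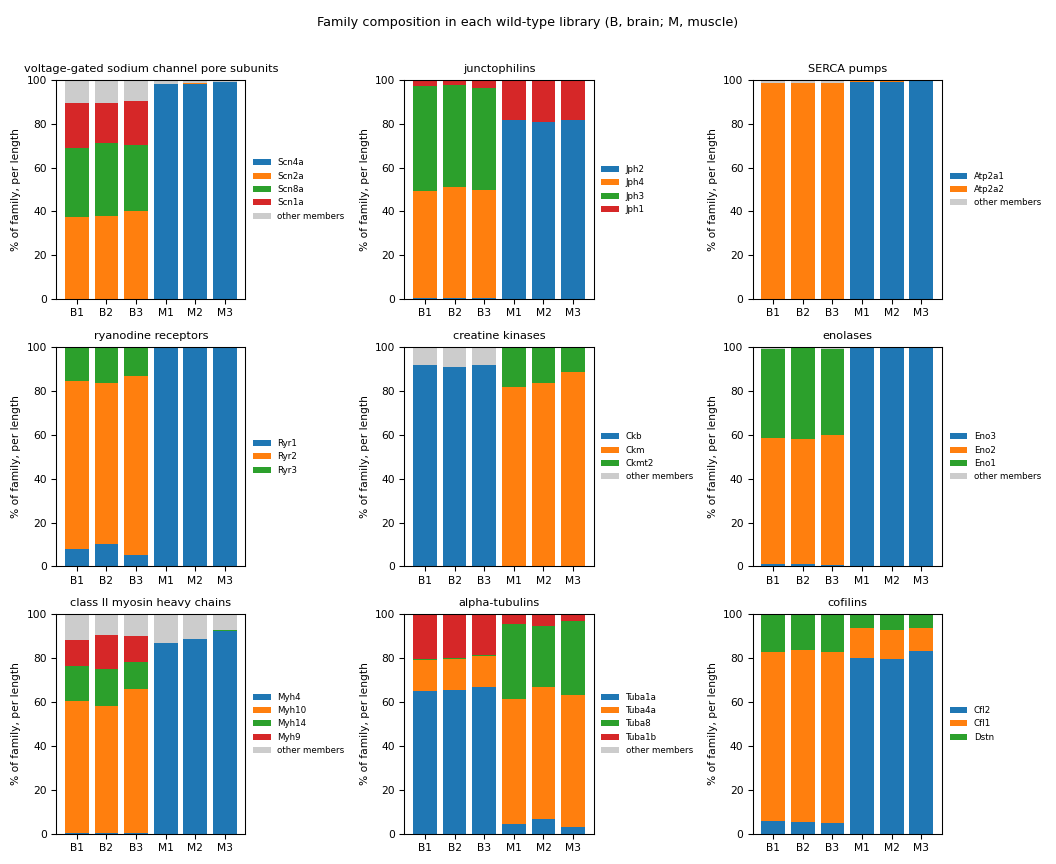
Share of the family's summed per-length level (y axis, %) held by each member in each of the 3 brain (B1 to B3) and 3 muscle (M1 to M3) wild-type libraries, for 9 families; members that reach 10% in either tissue have a colour and the rest are grey. Libraries of 1 tissue look alike, and Scn4a, Atp2a1, Ryr1, Ckm, Eno3 and Myh4 each take over 80% of their family in every muscle library.

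Voltage-gated calcium channels went from many pores to 1. Cacna1s, the voltage sensor of excitation-contraction coupling, held 99% ± 0.159 of the family in muscle, at 92.6, 108 and 130.0 CPM per kb, against 0.0726, 0.0704 and 0.0744 in brain. In brain 6 genes each held at least 10%: Cacna1a (P/Q-type, 17.8%), Cacna1b (N-type, 16.5%), Cacna1e (R-type, 13.8%) and the T-type genes Cacna1i (17%), Cacna1g (13%) and Cacna1h (10.1%). No single one led in every brain library, so the family is not among the 79, although 98.8% of its total changed hands. Its partners switched with it. The beta subunit Cacnb1 held 99% ± 0.152 in muscle and Cacnb3 61.5% ± 1.07 in brain, with Cacnb4 at 11.1%. The alpha2delta subunit Cacna2d1 held 98.3% ± 0.238 in muscle, where Cacna2d3 led in brain with 60.4% ± 5.09. Cacna2d1 and Cacnb1 were also well expressed in brain, at 8.47 and 21.6 CPM per kb against 40.9 and 77.5 in muscle. Cacna2d2 added 15.3% of the alpha2delta total in brain. In the gamma family Cacng1 and Cacng6, which attach to calcium channels, held 71% and 27.2% in muscle, and Cacng7, Cacng3 and Cacng8, which belong to the AMPA receptor auxiliary group, held 41.5%, 22.3% and 14.5% in brain. Cacng3 was listed at 0 in every muscle library and was at least 1456-fold higher in brain, set against a floor of 3 fragments per library.

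Of 54 potassium channel genes tested in 9 families, 32 were at least 8-fold higher in brain and 4 in muscle. Of all genes tested, 17.5% and 6.64% were called at 8-fold in those directions, so the muscle count lay near the share of all genes. Kcna7, a Kv1 channel, held 89.1% ± 4.78 of its family in muscle at 41, 48.3 and 67.5 CPM per kb, and with 0, 1 and 1 fragments in brain it was 16439-fold (95% counting interval 4550.4 to 135754) higher in muscle. The brain Kv1 total was divided among Kcna2 (34.5%), Kcna6 (29%) and Kcna1 (17.3%). Of the Kv7 channels Kcnq3 held 23.9% of the family in brain, and Kcnq5 20.1% in brain and 27.7% in muscle. Among inward rectifiers Kcnj11, the pore of the ATP-sensitive potassium channel, led in muscle with 63.5% ± 4.08, ahead of Kcnj12 (14.7%) and Kcnj2 (12.2%). In brain the leaders were Kcnj4 (29%), the astrocytic Kcnj10 (28.1%) and Kcnj9 (16.5%). The sulfonylurea receptor that pairs with Kcnj11 switched as well: Abcc8 held 83.5% ± 2.30 in brain and Abcc9 97.7% ± 0.253 in muscle.

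Several potassium channel families were low in muscle, so that a switch there concerns small amounts. Kcnd1 led the Kv4 family in muscle at 0.103, 0.0859 and 0.0487 CPM per kb, although its level in brain, 1.57, 1.59 and 1.54, was higher, and Kcnd2 led there at 11.6, 10.5 and 11.4. Kcnab1 led the Kv beta family of muscle at 0.681 CPM per kb and was also higher in brain (9.44), where Kcnab2 led at 49.3. Kcnk6 led the two-pore family of muscle at 0.533, was at 0.659 in brain, and was not called with TMM but was called higher in brain with total counts, while Kcnk1 led in brain at 23.7. Other members with at least 10% in 1 tissue were Kcnd3 (29.1% of Kv4 in brain and 12% in muscle), Kcnab3 (15.9% of Kv beta in brain), Kcnk2 (16.2% and 24.9%) and Kcnk5 (15.5% in muscle). Not all potassium channels distinguished the tissues. Kcnc4 led Kv3 in both, and Kcnc2 held 20.9% in brain. Kcnc1 was at 13.5, 12.4 and 11.8 CPM per kb in brain and 12.4, 11.9 and 13.9 in muscle (log2 -0.02 (SE 0.10), adjusted p = 0.872 by edgeR). The ranges of Kcnc1 overlapped with TMM, and with total counts it was called higher in brain. Hcn2 led the pacemaker HCN channels in both tissues, at 33.3 ± 7.81 and 0.706 ± 0.123 CPM per kb, with Hcn4 at 15% in muscle. Among calcium-activated SK channels Kcnn1 held 90.8% in muscle, whereas Kcnn2, Kcnn1 and Kcnn3 held 36.3%, 35.8% and 27.1% in brain and the leader varied between brain libraries.

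Resting conductance and the endplate were also divided between paralogues. Clcn1, the chloride channel that stabilises the muscle membrane, stood at 20.7, 27.9 and 39.6 CPM per kb in muscle and 0.227, 0.287 and 0.191 in brain (log2 -6.95 (SE 0.30), adjusted p = 7.81e-08 by edgeR), while the brain total of the ClC family was led by Clcn4 (31.7%) and Clcn6 (25.1%), with Clcn7, Clcn3 and Clcn2 at 14.6%, 13.9% and 12.1%. Clcn4 and Clcn7 kept 19.4% and 10.1% in muscle. For nicotinic receptors the neuronal pair Chrna4 and Chrnb2 held 38.1% and 33.9% in brain, and the adult endplate subunits Chrnb1, Chrne and Chrna1 held 44.2%, 28.8% and 14.3% in muscle. The beta subunit of the sodium-potassium ATPase passed from Atp1b1 (66.3% in brain) to Atp1b2 (63.4% in muscle), although Atp1b2 itself was not called with TMM and was called toward brain with total counts, at 112, 115 and 101 in brain and 87.7, 138 and 160.3 in muscle. The regulator Fxyd1 (phospholemman) held 84.5% ± 4.80 in muscle, and Fxyd6 and Fxyd7 held 45.1% and 42.7% in brain.

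The machinery that releases and retakes stored calcium differed gene by gene. Among calcium pumps of the reticulum, Atp2a1 (SERCA1) stood at 8029.7, 9583 and 11656 CPM per kb in muscle and 0.163, 0.205 and 0.114 in brain (log2 -15.86 (SE 0.34), adjusted p = 2.23e-09 by edgeR). Atp2a2 (SERCA2), which held 98.6% ± 0.137 of the brain family, was at 83.9, 77.9 and 90.5 in brain and 59.9, 84 and 37.4 in muscle. The 2 ranges of Atp2a2 overlapped with TMM, and the difference (log2 0.48 (SE 0.25)) was not called. With total counts it was called higher in brain. Of the small proteins that regulate these pumps, Mrln (myoregulin) reached 107 ± 25.3 CPM per kb in muscle, ahead of Sln (sarcolipin, 8.93 ± 5.43), Gm34302 (3.55 ± 1.17) and Pln (phospholamban, 0.738 ± 0.141), and in brain all 4 were under 1.

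Release channels and their scaffolds were exchanged almost entirely. Ryr1 stood at 219, 243 and 271 CPM per kb in muscle and 0.570, 0.684 and 0.393 in brain, and Ryr2 at 5.62, 4.81 and 6.46 in brain with 4, 7 and 12 fragments in muscle; Ryr3 held 15.1% of the brain total. Junctophilins, which hold the reticulum to the surface membrane, passed from Jph4 (49.8% ± 0.950) and Jph3 (47% ± 0.627) to Jph2 (81.4% ± 0.387) and Jph1 (18.6% ± 0.382). The adaptors that link the voltage sensor to the release channel passed from Stac2 (95.7%) to Stac3 (99.9%). IP3 receptors, the other release channels, kept their leader. Itpr1, rich in Purkinje cells, stood at 17.7, 14.1 and 20.5 CPM per kb in brain and 0.969, 1.19 and 1.40 in muscle, with Itpr2 (29.8%) and Itpr3 (22.2%) next in muscle. The store buffer Casq1 (calsequestrin 1) reached 2486, 2798 and 3024 CPM per kb in muscle. Casq2 led in brain at only 0.760 ± 0.159, below its own level in muscle of 35.3 ± 13.2.

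Calcium extrusion, buffering and sensing also drew on different genes. The sodium-calcium exchanger Slc8a2 held 82% ± 4.41 in brain and Slc8a3 91% ± 0.964 in muscle; Slc8a3 was called higher in muscle with TMM (log2 -1.63 (SE 0.24)) but not with total counts. The exchangers that also carry potassium were led by Slc24a3, with 47.7% in brain, beside the neuronal Slc24a2 at 44.8%, and 84.1% in muscle; the order of both genes varied between brain libraries. The surface pump Atp2b1 led in both tissues, with 44.2% and 70.8%, and Atp2b3 and Atp2b4 held 11.8% and 11.7% in brain. By contrast Atp2b2, prominent in cerebellar neurons, was at 35.9, 31.7 and 35.2 CPM per kb in brain and 0.0120, 0.0156 and 0.0109 in muscle. Pvalb, the buffer of fast fibres and of 1 class of interneurons, reached 27261, 27439 and 26409 CPM per kb in muscle and 44.3, 39 and 33.9 in brain. In brain it shared the buffer family with S100b (33%), S100a1 (24.1%), Calb2 (14.8%) and Calb1 (10.2%), and Calb2 was listed at 0 in every muscle library. The neuronal sensors Vsnl1, Hpca and Hpcal4 held 31.4%, 25.6% and 21.3% of their family in brain; in muscle each stayed under 0.1 CPM per kb and Hpcal1 led at 4.14 ± 1.45, followed by Ncs1 (27.4%) and Ncald (11.3%). The levels of both Hpcal1 and Ncs1 were higher in brain, at 27.3 ± 2.13 and 49.5 ± 2.57 CPM per kb. Hpcal4, with 1, 1 and 3 fragments in muscle, was 25059.6-fold (95% counting interval 10738 to 77179) higher in brain.

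Among calcium-dependent enzymes, CaM kinase II and calcineurin kept their leaders. Camk2a led its family in both tissues, at 220.1, 199 and 262 CPM per kb in brain and 59.9, 78.2 and 96.5 in muscle, with Camk2g at 12.7% of the brain total and 38.1% of the muscle total and Camk2b at 18.7% and 16.3%. The calcineurin subunits Ppp3r1, Ppp3ca and Ppp3cb kept the leader Ppp3r1, and 22.4% of the family total changed hands. Of the calmodulin genes, which encode the same protein, Calm2 and Calm3 were called higher in brain, and 18.2% of their total changed hands, with Calm2 (48.8%) leading in brain and Calm3 (39.4%) in muscle. In protein kinase C Prkcb and Prkce each held 23.1% in brain, and Prkcq led in muscle with 51.3%, ahead of Prkca (29.8%). For store-operated entry Stim1 and Orai1 held 38.4% and 34.9% of their family in muscle, and in brain 4 of the 5 genes lay close together, Stim2 (27.5%), Orai2 (24.4%), Orai3 (21.3%) and Stim1 (20.9%). Calcineurin's regulators passed from Rcan2 (67.2%) to Rcan1 (75.1%). The mitochondrial uniporter kept Smdt1, its essential small subunit, as leader, with 64.4% and 80.0%; Micu3, the neuronal gatekeeper, held 12.6% in brain, and Micu2 11% in muscle.

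Creatine kinases, which buffer ATP, gave the most complete exchange of the 118 families, 99.9% of their total. Ckb (ENSMUSG00000001270, chromosome 12, 111669355 to 111672338 on GRCm38) stood at 693, 721 and 704 CPM per kb in brain and 7.41, 8.85 and 6.57 in muscle (log2 6.53 (SE 0.15), adjusted p = 3.20e-09 by edgeR). Ckm (ENSMUSG00000030399, chromosome 7, 19404776 to 19422841) stood at 7667, 8285 and 9196 in muscle and 0.101, 0.0597 and 0.0396 in brain (log2 -16.90 (SE 0.33), adjusted p = 1.81e-09 by edgeR). No library of either tissue came near the other. The mitochondrial form Ckmt2 held 15.3% ± 3.50 in muscle. Adenylate kinases passed from Ak5 (32.7%), Ak1 (29%) and Ak3 (21.7%) to Ak1 (93.3%). AMP deaminase passed from Ampd2 (74.8%) and Ampd3 (25.2%) to Ampd1 (99.3%), which had 0, 5 and 3 fragments in the brain libraries and 538 ± 69.1 CPM per kb in muscle.

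Glycolysis alternated between exchanged and shared steps along the pathway. At entry, Hk1 (hexokinase 1) held 92.4% ± 0.791 in brain and Hk2 95.3% ± 1.47 in muscle, with similar family sums of 36.2 ± 1.61 and 68.2 ± 12 CPM per kb. The enzymes that make and break fructose-2,6-bisphosphate, a regulator of the phosphofructokinase step, kept Pfkfb3 as leader (46.3% and 64.1%). Pfkfb4 (28%) and Pfkfb2 (24%) followed in brain, and Pfkfb4 (17.5%) and Pfkfb1 (16.8%) in muscle. Fructose bisphosphatase, which runs the phosphofructokinase step backwards, passed from Fbp1 (79.6%) to Fbp2 (98.8%), at family sums of 0.166 ± 0.0450 and 115 ± 24.2 CPM per kb. Pfkm led the phosphofructokinases in both, with Pfkl (18.2%) and Pfkp (13.2%) added in brain. Aldoa led the aldolases in both, but Aldoc, known from astrocytes and Purkinje cells, held 41.8% ± 2.74 in brain and 0.162 CPM per kb in muscle. Phosphoglycerate mutase passed from Pgam1 (92.9% ± 0.681) to Pgam2 (99.9% ± 0.0139). Enolase passed from Eno2, the neuron-specific form (133, 150.2 and 144 CPM per kb in brain and 0.138, 0.132 and 0.121 in muscle), and Eno1 (40.5% of the brain total) to Eno3 (8159.6, 6984 and 8067 in muscle and 2.54, 2.31 and 1.84 in brain). Pkm alone made up the pyruvate kinase family in both. The last step again differed. Ldhb stood at 238, 249 and 246 in brain and 328, 259 and 133 in muscle, a log2 difference of 0.03 (SE 0.27) that was not called with TMM and was called toward brain with total counts. Ldha stood at 63.8, 72.8 and 67.2 in brain and 1601, 1525 and 1927 in muscle. The family passed from Ldhb (77.8%) to Ldha (86.7%).

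Glycogen and fuel supply showed the same division. Pygb held 73.6% ± 1.88 of glycogen phosphorylase in brain and Pygm 24.4% ± 2.10, while in muscle Pygm held 99.9% at 3331, 3601 and 4714 CPM per kb. Gys1 was nearly the only glycogen synthase in both, at 2.96 ± 0.168 and 111 ± 5.84 CPM per kb. Among glucose transporters the insulin-responsive Slc2a4 (GLUT4) held 94.9% ± 0.255 in muscle, at 222, 219.8 and 218 CPM per kb against 0.273, 0.253 and 0.243 in brain. In brain Slc2a1 of the blood-brain barrier (34.4%) and the neuronal Slc2a3 (33.6%) were level, and which of them led differed between libraries; Slc2a6 (12.1%) and Slc2a8 (11.2%) followed. Lactate transporters passed from Slc16a1 (67.6%) and Slc16a7 (18.8%) to the export form Slc16a3 (89%). Fatty acid binding was led by Fabp3 in both, and Fabp7 of radial glia and astrocytes (24.6%) and Fabp5 (24.6%) made up much of the rest in brain. Acetyl-CoA carboxylase passed from Acaca (86.3%), the lipogenic form, to Acacb (96.9%), which controls fatty acid entry into mitochondria. Acyl-CoA synthetase passed from Acsl3 (41.9%), Acsl5 (21%), Acsl6 (20.7%) and Acsl4 (11.8%) to Acsl1 (65.2%), with Acsl4 at 11.5% and Acsl3 at 10.2% in muscle.

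Of the kinases and coactivators that set fuel use, some kept their leader. The catalytic subunit of AMP-activated kinase passed from Prkaa1 (57.9%) to Prkaa2 (88.2%), although Prkaa1 itself was not called with TMM and was called toward brain with total counts, at 4.01, 3.70 and 4.39 CPM per kb in brain and 4.48, 4.23 and 4.28 in muscle. Its beta subunit was led by Prkab2 in both, with Prkab1 at 37.7% in brain. Its gamma subunit was divided in muscle between Prkag3 (44.2, 54.4 and 71.6% of the family in the 3 libraries), known from fast fibres, and Prkag1 (52.1, 42.3 and 26.2%), and in brain between Prkag1 (57.1%) and Prkag2 (42.9%). Pyruvate dehydrogenase kinase was led by Pdk2 in brain (61.9%, with Pdk3 at 19.9% and Pdk1 at 12.1%). In muscle Pdk4, the fasting-responsive form, took 66.6, 64.1 and 24.3% in the 3 libraries and Pdk2 most of the rest, so the leader varied. Ppargc1a and Esrra, regulators of mitochondrial genes, led their families in both tissues. Pprc1 held 31.9% and 22.1% beside Ppargc1a, Ppargc1b 10.6% and 17.8%, and Esrrg 17.6% beside Esrra in brain. The level of Ppargc1a was 4.02, 3.16 and 4.52 CPM per kb in brain and 4.44, 20.7 and 4.32 in muscle, highest in muscle replicate 2, and its difference was not called with TMM. Phosphorylase kinase is built of unlike subunits, so its change of leader, from the catalytic Phkg2 (30.3% in brain) to the regulatory Phka1 in muscle, is not an exchange of paralogues. In muscle the total was divided among Phka1 (45%), Phkg1 (29%) and Phkb (25.2%), the last with 22.2% in brain, where Phka2 held 14.7%. Among uncoupling proteins Slc25a14, Slc25a27 and Ucp2 held 52.8%, 31.9% and 12% in brain, and Ucp3 89.5% ± 4.35 in muscle.

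Of 5 families of cytochrome c oxidase subunits, 3 were exchanged. The cytochrome c oxidase subunits Cox6a1, Cox7a2 and Cox8a held 97.2% ± 0.105, 62.8% ± 1.05 and 99.6% ± 0.0447 of their families in brain, and the heart and muscle forms Cox6a2, Cox7a1 and Cox8b held 97.5% ± 0.453, 66.4% ± 1.48 and 95.7% ± 0.512 in muscle; Cox7a2l took 36.1% and 10.7% of the subunit 7A totals. Cox8a was at 455, 448 and 420.1 CPM per kb in brain and 95.5, 93.3 and 57.9 in muscle, and Cox8b at 2.14, 1.98 and 1.60 and 2167, 1819 and 1438. At the other 2, Cox4i1 and Cox6b1 led in both tissues and under 1% of the total changed hands. Atp5g3, a ring subunit of ATP synthase, also led in both, ahead of Atp5g1 (15.7% and 26.3%) and Atp5g2 (15.7% and 13.6%). The nucleotide translocator Slc25a4 led in both, with Slc25a5 at 34.4% in brain and 0.957% in muscle. The outer membrane channel Vdac1 held 75.2% and 76%, with Vdac2 (15.8% in brain) and Vdac3 (14.5% in muscle) behind. Oxygen and carbon dioxide carriers switched: Mb (myoglobin) stood at 5512, 4471 and 2949 CPM per kb in muscle and 1.66, 0.327 and 0.348 in brain, where Cygb (cytoglobin, 75.4%) and Ngb (neuroglobin, 21.5%) led instead. Carbonic anhydrase passed from Car2 (94.3% ± 0.214), an oligodendrocyte gene in brain, to Car3 (99.5% ± 0.198), a slow-fibre and adipocyte gene.

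The actins and the myosin heavy and light chains all changed their leader. Actb and Actg1, the cytoplasmic actins, held 67.9% ± 1.06 and 30.3% ± 1.14 in brain, and Acta1 held 95.7% ± 1.04 in muscle. Actb itself was at 224, 234 and 249 CPM per kb in brain and 152, 135 and 139 in muscle; multi-mapping fragments were not counted, and the levels of these near-identical genes are uncertain. Among the myosin heavy chains, Myh10, Myh14 and Myh9 held 61.3%, 15.2% and 12.9% in brain. Myh4 (ENSMUSG00000057003, chromosome 11, 67238029 to 67260446) stood at 14021, 13643 and 15504 CPM per kb in muscle and 0.0403, 0.0492 and 0.0618 in brain, and held 89.5% ± 2.86 of the muscle total. The light chains passed from Myl6 and Myl12b to Myl1 (93.1%) and Mylpf (97.9%). Myl6, a general light chain, was not called with TMM, at 219, 239 and 240.0 in brain and 304, 261 and 203 in muscle.

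Many thin-filament and Z-disc families changed their leader too. The fast troponins Tnnt3 and Tnni2 held 99.4% and 99.6% of their families in muscle; in brain the slow forms Tnnt1 (2.70 ± 0.352 CPM per kb) and Tnni1 (1.02 ± 0.0378) led, at levels far below their own in muscle (220.0 ± 98.6 and 55.4 ± 26.6). The cardiac forms Tnnt2 and Tnni3 held 14.1% and 21.2% of those small brain totals. Tropomyosin was led by Tpm1 in brain (46.7%, before Tpm3 and Tpm4 at 32.6% and 17.2%), and in muscle Tpm1 and Tpm2 shared it, with 44.6, 47.1 and 60.1% and 54.6, 51.7 and 39.4% in the 3 libraries. Alpha-actinin passed from Actn1 (44.1%), Actn4 (42.9%) and Actn2 (12.1%) to the fast-fibre Actn3 (93%). Tropomodulin passed from Tmod2 (73.1%) to Tmod4 (88.9%), with Tmod1 at 15.2% and 9.64% and Tmod3 at 11.5% in brain. Filamin passed from Flna (56.7%) to Flnc (93.3%), and the nebulin family from Lasp1 (83.7%) and Nebl (15.3%) to Nrap (65.6%) and Neb (33.7%). Actin turnover was exchanged too: Cfl1 (cofilin 1) held 77.8% ± 0.590 in brain and Cfl2 81.2% ± 1.98 in muscle, with Dstn at 16.9% in brain and Cfl1 at 12.2% in muscle. Profilin passed from Pfn2 (70.1%) to Pfn1 (64.9%), although each held 27% or more in the other tissue too. The cyclase-associated proteins were near level in brain, Cap1 at 52.4% and Cap2 at 47.6%, and Cap2 held 93.4% in muscle. Mylk2, the skeletal light-chain kinase, had 2, 0 and 2 fragments in brain and was 124768-fold (95% counting interval 48729.5 to 457924) higher in muscle, and Mylk4 held 14.7%; Mylk (69.1%) and Mylk3 (28.5%) made up a small brain total of 1.36 ± 0.214 CPM per kb.

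Some sarcomere families had a summed brain level under 1 CPM per kb. Myosin-binding protein C was led in muscle by Mybpc2 (77.7%), the fast form, before Mybpc1 (14.7%), against a brain sum of 0.905 ± 0.0342 CPM per kb led by Mybpc1, with Mybpc3 at 16.9%. Myomesin was led by Myom1 (55%) and Myom2 (42.8%) in muscle, with a brain sum of 0.585 ± 0.0588 led by Myom3 (59.3%). Leiomodin was shared in muscle by Lmod3 (62.8, 44.8 and 71.5% in the 3 libraries) and Lmod2 (35.9, 54.2 and 27.3%), with a brain sum of 0.398 ± 0.0376 led by Lmod1 (79.4%). Sarcoglycans, which brace the dystrophin complex, summed to 11.6 ± 0.132 in brain and 336 ± 23.4 in muscle. In brain Sgcb held 79.3% and Sgce, the neuronal form, 14.3%, while in muscle Sgca led (49.8%) and Sgcb held 15.3%. Sgcb and Sgca are different subunits of 1 complex, so this too is not an exchange between versions of 1 subunit.

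As counted, troponin C was the 1 troponin led by the same gene in both tissues. That gene was Tnnc1, at 4.27, 4.56 and 6.15 CPM per kb in brain and 328, 374 and 144 in muscle. Its fast paralogue Tnnc2 had only 491, 306 and 371 fragments in the muscle libraries. However, 74% of the 800 exonic bases of Tnnc2 are also covered by exons of Ube2c, and fragments that touched both genes were left out of the deposited counts. Per kilobase of its 208 unshared bases, Tnnc2 averaged 29.5 CPM in muscle. Fragments that reach from those bases into a shared exon are missing too, so this value cannot decide which troponin C leads there. The same limit touches Cpt1b, the muscle form of carnitine palmitoyltransferase 1, with 81.4% of its exonic bases shared with Chkb. As counted, Cpt1a led in muscle (3 ± 1.26 CPM per kb) over Cpt1b (0.881 ± 0.108), and Cpt1c led in brain (9.99 ± 0.635); per kilobase of unshared exon Cpt1b averaged 4.73 CPM in muscle and became the leader. In all, 147 members shared at least 1 exonic base with another gene and 21 more than 20%, among them Atp2a1 (21.9%), Nefl (32.8%) and Tuba4a (37.3%), whose levels are therefore uncertain.

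Among microtubule genes the muscle leaders were members that brain also expressed. Alpha-tubulin passed from Tuba1a (65.9% ± 0.825) and Tuba1b (19.6% ± 0.915) to Tuba4a (59.2% ± 1.71) and Tuba8 (32% ± 3.46), and Tuba4a also held 14% in brain. In brain 5 beta-tubulins held at least 10% each, Tubb4a (31.5%), Tubb2a (22.7%), the neuronal Tubb3 (16.3%), Tubb5 (13%) and Tubb4b (10.2%); in muscle Tubb4b held 79.6% ± 2.62. In kinesin-1 the level of the muscle leader was not called with TMM. Kif5a stood at 338, 298 and 381 CPM per kb in brain and 0.0838, 0.0720 and 0.103 in muscle, and Kif5c at 79.2, 68.7 and 84.9 and 0.131, 0.112 and 0.135. Kif5b, the ubiquitous form, was at 19.3, 15.6 and 23.4 in brain and 17.9, 20.1 and 21.6 in muscle (log2 -0.03 (SE 0.15), not called with TMM and called toward brain with total counts). It made up 4.43% of the family in brain and 98.9% in muscle. Dynein intermediate chains passed from Dync1i1 (70.3%) to Dync1i2 (99.5%), which was called higher in brain all the same (log2 0.38 (SE 0.09)). Kinesin light chains passed from Klc1 (70.8%, with Klc2 at 24.7%) to Klc2 (41.8%), Klc1 (39.2%) and Klc4 (18.9%). Stathmins, which destabilise microtubules, passed from Stmn3 (50.7%, with Stmn1 at 26.8%) to Stmn1 (46.4%). Stmn4 held 14.6% in brain and 29.8% in muscle, and Stmn2 20.5% in muscle. All 4 genes together summed to 567 ± 33.4 CPM per kb in brain and 4.91 ± 1.34 in muscle.

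Other motors and filaments were exchanged as well. Kinesin-3 passed from Kif1a (69% ± 0.708) to Kif1c (85.9% ± 0.920), with Kif1b at 21.1% and 14%. The stabilising proteins Mapt (tau, 43.3%) and Map2 (34.6%) passed to Map4 (75.4%), and Mapt kept 24.4% in muscle. The MAP1 group passed from Map1a (61%) and Map1b (35.2%) to Map1s (54.6%), with Map1a and Map1b at 26.1% and 19.2% in muscle. Intermediate filaments passed from Nefl, Ina, Gfap and Nefm (32.6%, 20.8%, 20.6% and 13.6%) to Des (desmin, 89.6% ± 1.82). Gfap is an astrocyte gene, so this brain total joins neuronal and glial filaments. Nuclear lamins did not switch, with Lmna leading in both (45.7% and 78.8%) and Lmnb2 at 33.8% and Lmnb1 at 20.5% in brain. At the membrane skeleton, Sptb held 65.7% of the spectrin beta chains in muscle and Sptbn1 23.3% in brain and 33.6% in muscle. Ankyrins passed from Ank2 (52.6%) and Ank3 (32.7%) to Ank1 (93.8%), and the alpha chain Sptan1 was common to both. Dmd (dystrophin) held 28% ± 2.67 beside Utrn (utrophin) in brain and 63% ± 4.35 in muscle. Of their partners Dtna led the dystrobrevins in both tissues, with Dtnb at 24.4% in brain.

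Of the translation machinery, 2 families were followed and both were exchanged. Elongation factor 1 alpha passed from Eef1a1 (63% ± 1.52) to Eef1a2 (93% ± 1.56), which also held 37% in brain, a tissue whose neurons are known to use it. Ribosomal protein L3 passed from Rpl3 (116, 119 and 114 CPM per kb in brain and 28.3, 23.1 and 15.7 in muscle) to Rpl3l (683, 570.0 and 591 in muscle and 0.166, 0.164 and 0.141 in brain). The Rpl3l libraries of the tissues were separated by a log2 difference of -11.92 (SE 0.18).

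The same contrast in the 6 Ctcf+/- libraries used separate samples. There 16511 of 19520 genes tested (84.6%) were called, 9278 (47.5%) higher in brain and 7233 (37.1%) in muscle, and at 8-fold 3534 (18.1%) and 1277 (6.54%). Of the 270 members called at 8-fold in wild-type, 258 (95.6%) were also called at 8-fold in Ctcf+/- libraries, beside 90.4% of all genes called at 8-fold in wild-type. Of the 79 switched families, 75 had the same leaders. The 4 exceptions were the junctophilins and FXYD regulators, where the brain leader differed between Ctcf+/- libraries, alpha-actinins, where Actn1 and Actn4 were close, and two-pore potassium channels, where Kcnk3 led in Ctcf+/- muscle.

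**Figure D4:**
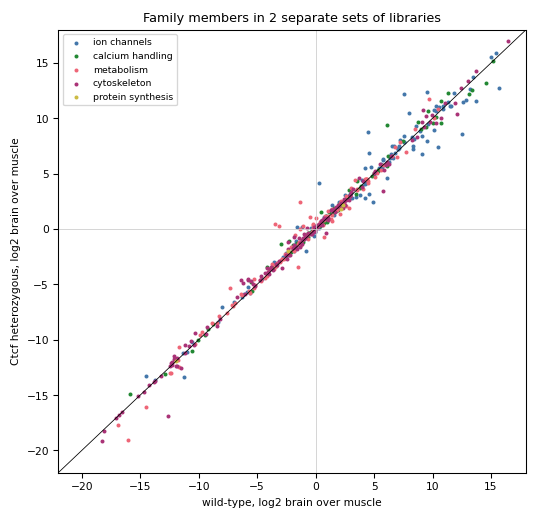
Log2 difference, brain over muscle, of each of 495 family members tested in both genotypes, in the wild-type libraries (x axis) and in the Ctcf+/- libraries (y axis), coloured by area, 3 libraries per tissue and genotype. The wild-type values run from -18.28 to 16.47, and 477 of the 495 members have the same sign in both genotypes.

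A test of the difference between the genotypes, the tissue by genotype interaction, called 13 of 20585 genes (0.0632%) and 2 of 508 members tested. Car2 was 1 of them: its muscle level was 5.44, 6.02 and 5.57 CPM per kb in wild-type and 2.66, 2.91 and 3.18 in Ctcf+/- libraries, and its brain level 54.9, 59.7 and 60.7 beside 58.2, 63.3 and 69.4. The muscle groups did not overlap, and the brain ranges did. The difference of the contrast, Ctcf+/- minus wild-type, was 1.08 on the log2 scale (adjusted p = 0.00818 by edgeR). The other was Kcnk3, a two-pore potassium channel, with 0.165, 0.112 and 0.124 CPM per kb in wild-type muscle and 0.796, 0.904 and 0.788 in Ctcf+/- muscle, against 4.18, 4.50 and 3.58 and 4.43, 4.81 and 3.98 in brain. Its contrast differed by -2.52 on the log2 scale, Ctcf+/- minus wild-type (adjusted p = 0.000338 by edgeR), and both muscle groups lay far under brain. For the remaining 506 members the interaction was not called, which does not show that their contrasts were equal: 65 (12.8%) had an unadjusted p under 0.05, beside 6.63% of all genes.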

How the data were processed

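Total RNA of adult mouse tissues was sequenced as paired reads. Per the file headers, the authors counted fragments over exons with featureCounts 1.5.0-p3, with the Ensembl GRCm38 release 86 annotation, and deposited raw counts per gene. The command in the headers sets no strand and does not ask for multi-mapping fragments or for fragments that touch several genes, so those are absent. Levels and shares of any member with near-identical copies are therefore uncertain beyond the printed SD, as stated for the actins. The submitters' processing notes also name FastQC, STAR, DESeq2 and mm10. Totals were 49.8 M to 103.7 M fragments in the 6 wild-type libraries of brain and muscle. Scaled by total counts, 3 fragments, the floor used for a gene at 0, equal 0.0289 to 0.0602 CPM. The fold bounds used the same 3 fragments on the TMM scale. Such floors and intervals cover counting error only.

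From these counts, edgeR 4.0.16 (R 4.3.3) was run on the 6 libraries with its default filter on low counts, TMM scaling, robust quasi-likelihood fits and Benjamini-Hochberg adjustment over all genes tested, and differences over 8-fold were tested with glmTreat. Levels are CPM on the TMM scale divided by the deposited exonic length in kilobases. The fit was also run on simulated counts in which few genes differed, equally in both directions. That run therefore does not bear on the scaling between these tissues. The alternatives were DESeq2 1.42.0, limma-voom (limma 3.58.1), other scalings and filters, all 15 wild-type libraries, a replicate block and each library left out. For families they were counts without length, the leader of the mean, and Ctcf+/- libraries. The members and gene lists were chosen with earlier results of these data known. Named genes are each described family's leaders, members with at least 10% of a family in either tissue, the 10 highest genes per tissue called at 8-fold and the cell type markers. No pair of replicates of 1 group agreed within sampling noise, so none were merged. Promoter sequences came from RefSeq on GRCm38.p6. Protein sequences were not used here, and some genes that this rule names are not reported here.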

Additional observations from a re-analysis of the deposited data

Results flagged for a closer look

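Among the family members, 2 had a brain over muscle contrast that differed between genotypes by a direct test, the tissue by genotype interaction of edgeR over 20585 genes. For Car2 the log2 contrast was 1.08 higher in Ctcf+/- than in wild-type libraries (adjusted p = 0.00818 by edgeR), with muscle lower in 3 of 3 Ctcf+/- libraries. For Kcnk3 it differed by -2.52 (adjusted p = 0.000338 by edgeR), with muscle higher in 3 of 3 Ctcf+/- libraries.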

How the results depend on the processing

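Of 5242 log2 differences recomputed for 353 named genes, 5084 kept their direction and their side of the threshold, 58 changed sign, 61 lost the call and 39 gained it. The split of calls rests on scaling and filter. With total counts 13359 genes were higher in brain and 3415 in muscle, and 671 passed 8-fold toward muscle. With at least 10 counts in every library 5795 were higher in brain, and 1790 passed 8-fold, 1118 toward brain and 672 toward muscle; that filter leaves out genes absent from 1 tissue. Leaving out 1 library at a time gave 15342 to 16213 calls and, at 8-fold, 3247 to 3372 toward brain and 1235 to 1335 toward muscle. Other tools and scalings stayed within 1.5 times of the reported counts.

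With total counts 30 members turned to positive log2 values, brain over muscle: Ak3 0.66, Atp1b2 1.08, Camk2g 0.66, Cox7a2l 0.12, Dtna 0.98, Esrrg 1.06, Flna 0.68, Itpr3 0.52, Kcnc1 1.30, Kcnk5 0.92, Kif1b 0.95, Kif5b 1.29, Klc4 0.23, Lmnb1 0.16, Map4 0.47, Myh9 0.60, Myl6 1.18, Mylk 0.16, Orai3 0.71, Ppp3cb 0.088, Pprc1 1.06, Prkaa1 1.21, Prkab1 0.77, Slc16a1 0.39, Slc2a8 1.13, Sptb 0.52, Stim2 1.29, Tmod3 0.44, Tnnt2 0.38 and Tubb4b 0.31. The remaining changes of sign were in genes with small differences. Kcnc1, Kif5b and Stim2 gave 0.058, 0.047 and 0.055 with DESeq2, 0.013, 0.0023 and 0.0096 with RLE size factors, 0.062, 0.048 and 0.057 with no filter, and 0.027, 0.012 and 0.021 with all 15 wild-type libraries. With 10 counts in every library they gave 0.17, 0.15 and 0.16, and Myl6, Prkaa1 and Slc2a8 gave 0.0503, 0.083 and 0.0017. Ldhb gave -0.016 with upper-quartile scaling. With each library left out in turn, the values ran from -0.074 to 0.058 for Kcnc1, -0.16 to 0.11 for Kif5b, -0.14 to 0.078 for Stim2, -0.43 to 0.034 for Esrrg and -0.27 to 0.31 for Ldhb.

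Replicate numbers are shared between the tissues, but same-numbered libraries did not deviate together (r = -0.003, 0.036 and 0.087), so they were not treated as pairs. With the replicate block 15684 genes were called, 3157 toward brain and 1260 toward muscle at 8-fold, and no named member changed its call.

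The count of switched families was 79, and 71 to 88 under the alternatives: 80 with counts not divided by length (61 of the 79 with the same leaders), 88 by the mean of the 3 libraries, 81 in Ctcf+/- libraries (75 with the same leaders) and 71 with both leaders at 1 CPM per kb or more. Leaving out a library gave 79 to 82. After the data were seen, shared exons were treated in 2 more ways, and both gave 80 with 75 kept. Leaving out the 4 families set apart for pooling unlike subunits, also chosen after the data were seen, gave 77. The nicotinic receptors and sarcoglycans were kept in that count. Without shared exonic bases Cpt1b led its family in muscle, Chrnb2 and Actn4 led theirs in brain, the Kv1 and calcium channel pore families counted as switched and the two-pore channels did not. The interaction called 13 genes by edgeR and 9 by limma-voom. Depth limits genes with a few fragments in 1 tissue, whose ratios carry wide intervals.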
